A study of Homo sapiens with 20 samples.

Results

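The GCOM1 locus on chromosome 15 holds 3 gene names, GCOM1, MYZAP and POLR2M, which are 3 of the 36346 gene names in the deposited files. GCOM1 is a readthrough gene, and most of its annotated transcripts begin with exons of MYZAP and end with exons of POLR2M. The locus was chosen by measured values, namely the fall of GCOM1 in silenced SW480 cells against its response in HT29. The silencing differences of GCOM1 in both lines, and between the lines, are therefore given here as a description and were not tested. MYZAP and POLR2M were taken because the readthrough spans them. Each of the 3 names had a single row in every file, so no rows had to be summed.

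The RNA came from 2 established colorectal cancer cell lines, HT29 and SW480, and was sequenced after transient transfection with siRNA for 72 h. In HT29 there were 4 libraries with scrambled control siRNA (SCR), 2 with siPOLR1D2 and 2 with siPOLR1D3. In SW480 there were 6 SCR, 3 siPOLR1D2 and 3 siPOLR1D3 libraries. The siRNAs siPOLR1D2 and siPOLR1D3 both target POLR1D, a subunit shared by RNA polymerases I and III. Libraries with either siRNA are called silenced. The labels number the libraries but do not say whether they came from separate cultures, so all p values measure the spread between these libraries, which may be technical.

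In readthrough transcription, RNA polymerase II passes the end of an upstream gene and continues into the next gene on the same strand, and splicing joins exons of both. MYZAP encodes a protein of cell junctions that was first described in the intercalated discs of heart muscle and that signals to serum response factor. POLR2M encodes Gdown1, a protein that associates with RNA polymerase II and affects which initiation and elongation factors can bind it.

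In the GENCODE 29 annotation of GRCh38, all 3 genes lie on the plus strand. GCOM1 covers chr15:57591908-57714745, MYZAP covers chr15:57591941-57685364 and POLR2M covers chr15:57706629-57782762, with a gap of 21264 bases between the last base of MYZAP and the first base of POLR2M. Of the 15 annotated GCOM1 transcripts, 13 hold exonic bases of both neighbours. A start in the first exon of MYZAP or just upstream of it is annotated for 13 of the 15. Of the 15, 4 are annotated as protein coding and 9 as targets of nonsense-mediated decay. MYZAP and POLR2M share 0 exonic bases with each other. In the coding readthrough transcripts nearly all bases lie in exons of MYZAP or POLR2M, so mainly their junctions set them apart. Those annotated as targets of nonsense-mediated decay can hold further bases, as GCOM1-203, with 47.4% in MYZAP exons and 33.6% in POLR2M exons. The following 60 bases around a splice junction show where the transcripts part, with the last 30 bases of the upstream exon in lower case and the first 30 of the downstream exon in capitals. All bases are from the GENCODE 29 transcripts. The upstream exon of the first 4 is exon 12 at chr15:57674968-57675068, and they continue into the last exon of MYZAP (chr15:57684402-57685364) or into exon 2 (chr15:57708714-57709358), exon 3 (chr15:57711984-57712188) or the start of the last exon (chr15:57714536-57714745) of POLR2M. The fifth is the junction of exons 1 and 2 of POLR2M itself.
MYZAP-201: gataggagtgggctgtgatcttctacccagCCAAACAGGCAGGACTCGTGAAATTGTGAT
GCOM1-214: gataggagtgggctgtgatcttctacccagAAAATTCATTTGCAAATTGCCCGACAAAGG
GCOM1-202: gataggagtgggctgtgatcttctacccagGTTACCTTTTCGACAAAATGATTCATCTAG
GCOM1-201: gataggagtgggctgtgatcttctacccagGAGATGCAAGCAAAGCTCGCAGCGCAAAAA
POLR2M-201: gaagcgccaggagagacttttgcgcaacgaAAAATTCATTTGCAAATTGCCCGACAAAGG

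MYZAP-201 and the 3 coding readthrough transcripts share the lower case bases. GCOM1-214 and POLR2M-201 share the bases in capitals, since both enter the same exon of POLR2M. Each run of 30 bases, on either side of these junctions, occurs in annotated transcripts of GCOM1 and of a neighbour. Each of the 3 coding readthrough junctions occurs in 1 GCOM1 transcript and in no transcript of MYZAP or POLR2M. The whole MYZAP-201 junction, in contrast, also occurs in 4 GCOM1 transcripts, all annotated as targets of nonsense-mediated decay, and the POLR2M-201 junction occurs in POLR2M transcripts alone. GCOM1-215, the fourth coding transcript, leaves the path earlier: it ends in an exon of 3926 bases at chr15:57646137-57650062, inside an intron of MYZAP, and holds 0 bases of POLR2M.

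**Figure D1:**
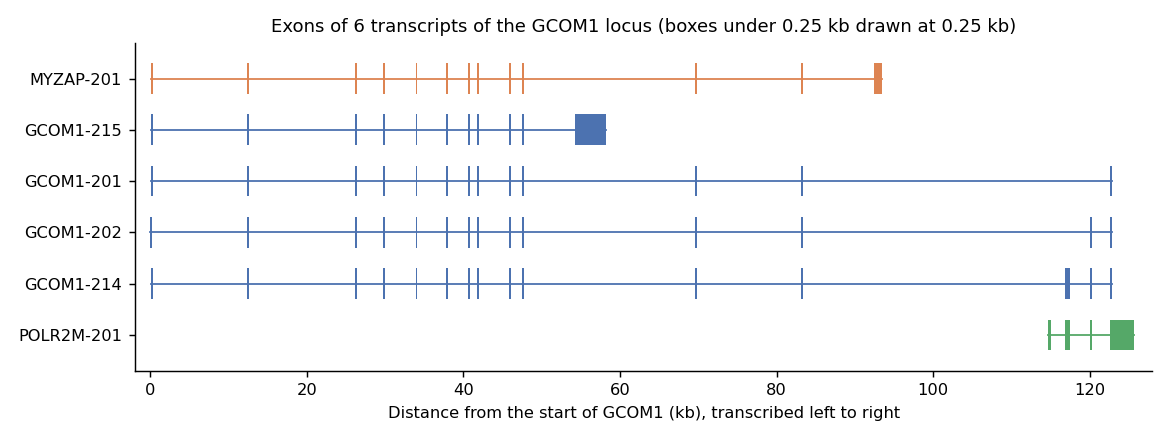
Exons (boxes) and introns (lines) of 6 transcripts of the locus in GENCODE 29, against the distance from the start of GCOM1 in kb, with exons under 0.25 kb drawn 0.25 kb wide. The GCOM1 transcripts (blue) start close to MYZAP-201 (orange) and share its exons up to exon 10 (GCOM1-215) or exon 12 (the others). All but GCOM1-215 run on into exons of POLR2M-201 (green), which starts 114.7 kb downstream.

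The authors counted reads with kallisto, which assigns a read by the words of sequence that it shares with annotated transcripts. At the default length of 31 bases, the annotated transcripts of GCOM1 hold 10703 distinct words, of which 71.7% occur in none of the other 2 members. MYZAP holds 2584 words, and only 34.2% of them are its own, since GCOM1 holds the other 65.8%. POLR2M holds 6686 words, of which 80.1% are its own and 19.9% occur in GCOM1. Words are called own against the other 2 members alone. Genes outside the locus, 183 in number, share some words with it: 642 of the GCOM1 words and 698 of the POLR2M words. The words of GCOM1 that are its own lie mostly outside the coding readthrough transcripts. GCOM1-201 has 28 words found in no other member, GCOM1-202 has 63 and GCOM1-214 has 26, whereas GCOM1-215 has 3924. The GCOM1 value of a library is therefore an estimate over 15 transcripts that share most of their coding sequence with their neighbours, and how kallisto split reads between the names was not tested. GCOM2, a gene elsewhere that shares 666 word matches with the locus, had a value of at most 2.45 in all 20 libraries.

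**Figure D2:**
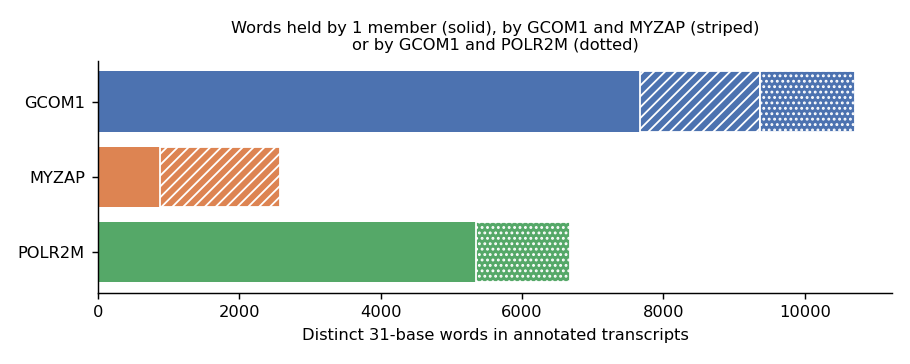
Number of distinct 31-base words in the annotated transcripts of each member. Solid bars are words held by 1 of the 3 members, striped parts are words shared by GCOM1 and MYZAP, and dotted parts are words shared by GCOM1 and POLR2M. MYZAP has the smallest number of words of its own.

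The values are read counts normalized with DESeq2 within each cell line, and they sum to between 17619829.5 and 22958216.4 per library. They are not divided by transcript length, so levels are compared between libraries and not between genes, and differences between cell lines in level are not tested. POLR1D was lower in the silenced libraries of both lines. It lay between 843 and 1336 normalized counts in the 6 silenced SW480 libraries, against 1829 to 2599 in SCR (log2 fold change -1.04, SE 0.13, adjusted p = 0.000991), and between 2549.6 and 3492 in the 4 silenced HT29 libraries, against 4433 to 6036 in SCR (-0.72, SE 0.14, adjusted p = 0.355). As for POLR1D, the arms did not overlap in the lower direction for 4.17% of the genes tested in HT29. Adjusted p values come from limma on log2(value + 1), with the Benjamini-Hochberg method over all genes tested. The first principal component of SW480, with 42.0% of the variance, set SCR replicates 1 to 3 and siPOLR1D2 replicates 1 and 2 on side 1, and the other 3 SCR libraries, siPOLR1D2 replicate 3 and all 3 siPOLR1D3 libraries on side 2. Epithelial markers summed to at least 139167 in every SW480 library and 220460 in every HT29 library, with CDX2 averaging under 10 in HT29. In SW480, KRT20 and LGALS4 averaged under 10 in SCR, whereas all 9 of these markers averaged at least 10 in silenced libraries. Endothelial markers summed to at most 136 and leukocyte markers to at most 21.2 normalized counts in any library, while COL1A1 and TNNT2 led fibroblast and cardiac muscle sums of up to 747 and 465 in SW480, in both arms. The part of these sums in the results was not tested.

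The value under the name GCOM1, which covers readthrough transcripts and GCOM1-215 alike, was lower in SW480 with both siRNAs. In SCR libraries it had a lowest value of 399.9, a median of 503 and a highest value of 539 normalized counts. With siPOLR1D2 it stood at 244, 175 and 166, and with siPOLR1D3 at 121, 152 and 154. None of the 6 silenced libraries reached the SCR range, and the highest silenced value was siPOLR1D2 replicate 1. The mean was 491 ± 51.6 (SD, n = 6) in SCR, 195 ± 42.9 (n = 3) with siPOLR1D2 and 142 ± 18.5 (n = 3) with siPOLR1D3. On the log2(value + 1) scale the differences were -1.34 (SE 0.16) and -1.78 (SE 0.16), and -1.56 (SE 0.16) over both siRNAs, the 86th lowest of 15019 genes tested. As background, 2.88% of these genes had all 6 silenced libraries below every SCR library, 6.86% had all 3 siPOLR1D2 libraries and 10.9% all 3 siPOLR1D3 libraries below them; GCOM1 was chosen for this contrast, so nothing is read from it. In bulk RNA, a lower value in every cell cannot be told apart from fewer cells that express the gene.

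In HT29 the differences of GCOM1 from its controls were smaller. SCR replicates 1 to 4 had 1222, 1245, 1088 and 1356 normalized counts, siPOLR1D2 libraries 1206 and 1207, and siPOLR1D3 libraries 1054 and 1001. The siPOLR1D2 libraries lay within the SCR range, whereas both siPOLR1D3 libraries lay just below its lowest value, which 11.5% of genes in HT29 did. The differences from SCR were -0.020 (SE 0.13) with siPOLR1D2 and -0.25 (SE 0.13) with siPOLR1D3. The response in SW480 minus that in HT29 was -1.43 (SE 0.21) on the log2 scale in a fit of all 20 libraries. GCOM1 was chosen for this difference between the lines, so nothing is read from it.

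The siRNAs themselves were compared within the silenced libraries, a contrast by which GCOM1 was not chosen. In SW480, GCOM1 was lower with siPOLR1D3 than with siPOLR1D2 by -0.44 (95% interval -0.85 to -0.035, adjusted p = 0.195, limma), and in HT29 by -0.23 (-0.58 to 0.12, adjusted p = 0.9995). Neither difference passed the test, although the 2 siRNA groups did not overlap in either line. In SW480, siPOLR1D2 replicates 1 and 2 lie on side 1 of the first principal component, and replicate 3 and all siPOLR1D3 libraries on side 2. Here the siRNA and the side are therefore largely confounded. Leaving out 1 SW480 library gave differences of GCOM1 between the siRNAs from -0.54 to -0.27. Between siPOLR1D3 and siPOLR1D2, 17.1% of all genes tested in SW480 and 19.4% in HT29 had every siPOLR1D3 library below every siPOLR1D2 library. In this comparison 3.32% of genes passed the adjusted p in SW480 and 0% in HT29, where 207 had an unadjusted p under 0.05.

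**Figure D3:**
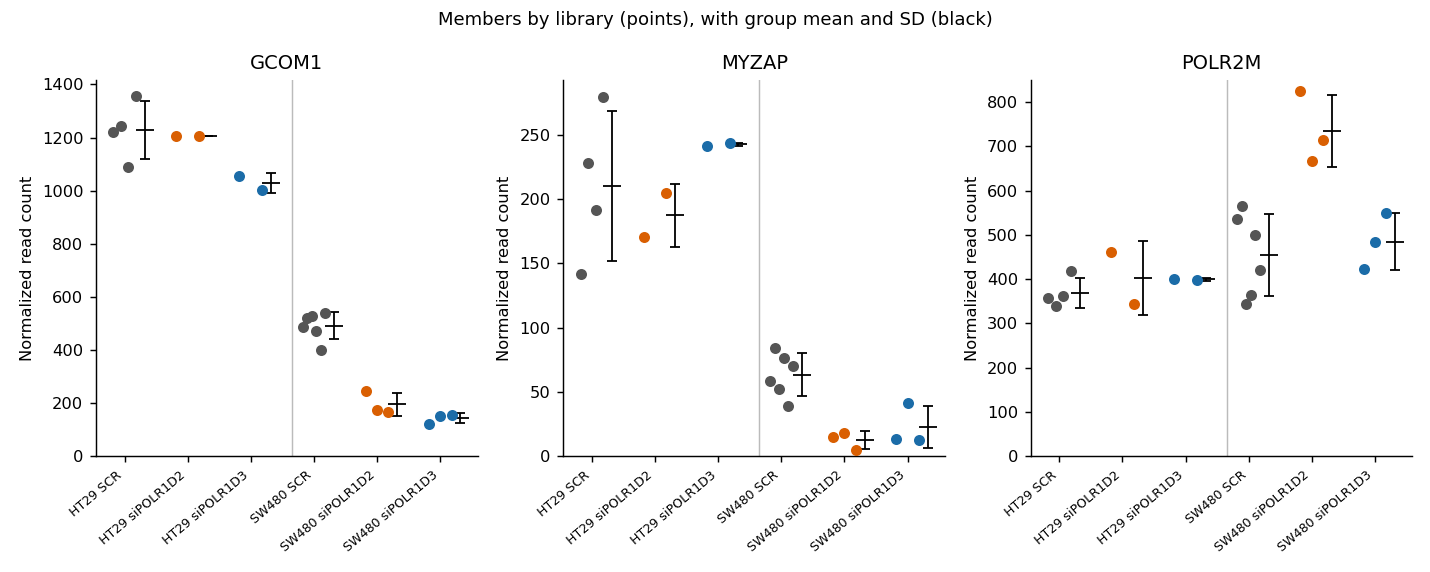
Normalized read counts of GCOM1, MYZAP and POLR2M in each of the 20 libraries (points, grey for SCR, orange for siPOLR1D2, blue for siPOLR1D3), with the group mean and SD in black beside them. Axes start at 0 and differ between genes. GCOM1 and MYZAP were lower in silenced SW480 libraries, and the 3 siPOLR1D2 libraries of this line were above its SCR libraries in POLR2M.

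The value under the name MYZAP fell in silenced SW480 cells. GCOM1 holds 65.8% of the words of MYZAP, and the coding readthrough transcripts share exons 1 to 12 of MYZAP-201. The fall of MYZAP may therefore not be independent of that of GCOM1, and how reads were split between them was not tested. For MYZAP, the SCR libraries had a lowest value of 39.0, a median of 64.3 and a highest value of 83.8 normalized counts. The siPOLR1D2 libraries had 14.4, 17.8 and 4.94, and the siPOLR1D3 libraries had 13.4, 41.4 and 12.4. Of the 6 silenced libraries 5 were below every SCR library, and siPOLR1D3 replicate 2 at 41.4 was the exception, just above the lowest SCR library. The mean was 63.2 ± 16.6 (SD, n = 6) in SCR and 17.4 ± 12.5 (n = 6) in silenced libraries. The log2 fold change was -2.002 (SE 0.39, 95% interval -2.84 to -1.16, adjusted p = 0.0111, limma), or 4.005-fold lower, and an exact 2-sided permutation test of the 12 libraries gave p = 0.00433, where the smallest it can give is 0.00216. In the same comparison 6.73% of genes passed the test, 4.29% as lower. MYZAP passed the filter on low values, with at least 10 normalized counts in 11 of the 12 SW480 libraries.

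By siRNA, MYZAP fell with siPOLR1D2 and did not pass the test with siPOLR1D3. With siPOLR1D2 the difference from SCR was -2.38 (SE 0.46, adjusted p = 0.00898), all 3 libraries lay below every SCR library as for 6.86% of genes, and 8.16% of genes passed the test, 5% as lower. With siPOLR1D3 it was -1.63 (SE 0.46, adjusted p = 0.0521), where 6.6% of genes passed. This difference passed in only 2 of the 12 fits that leave out 1 library. They were those without siPOLR1D3 replicate 2 (-2.16, adjusted p = 0.0417) and without siPOLR1D2 replicate 3 (adjusted p = 0.0290). The highest adjusted p (limma) was 0.230, without siPOLR1D3 replicate 1. The difference between the siRNAs was 0.75 (95% interval -0.39 to 1.89, adjusted p = 0.425), so a response of MYZAP that depends on the siRNA was not shown, and the interval is wide. On side 1 of the first principal component the silencing difference of MYZAP was -1.92 (adjusted p = 0.285, 5 libraries) and on side 2 it was -2.02 (adjusted p = 0.0434, 7 libraries).

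In HT29, a difference in MYZAP between the arms was not detected. The SCR libraries had 142, 228, 191 and 279 normalized counts, the siPOLR1D2 libraries 170.2 and 205, and the siPOLR1D3 libraries 242 and 243. All 4 silenced values lay within the SCR range. The log2 fold change was 0.061 (SE 0.22, 95% interval -0.44 to 0.56, adjusted p = 0.928, limma), and the exact 2-sided permutation test gave p = 0.8286, where the smallest it can give is 0.0286. The sign of this difference turns in 3 of the 8 fits that leave out 1 library. Both siPOLR1D3 libraries were above both siPOLR1D2 libraries, as for 18.5% of genes, with a difference of 0.38 (95% interval -0.33 to 1.08, adjusted p = 0.9995). In HT29, 0% of genes passed the test, while 1422 of 13274 had an unadjusted p under 0.05.

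The response of MYZAP was compared between the lines directly. It was lower in SW480 than in HT29 by -2.06 (SE 0.52, 95% interval -3.14 to -0.98, adjusted p = 0.194), which did not pass the test, and 0.037% of 16203 genes did. The loss of MYZAP in SW480 is thus not shown to differ from its response in HT29 at this threshold.

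The value under the name POLR2M, the downstream gene, did not fall with GCOM1. GCOM1 holds 19.9% of the words of POLR2M, and how reads were split between these names was not tested. In SW480 the SCR libraries had a lowest value of 343, a median of 460.2 and a highest value of 565 normalized counts. The siPOLR1D2 libraries had 825, 667 and 715, and the siPOLR1D3 libraries had 422, 483 and 549.6. All 3 siPOLR1D2 libraries were above every SCR library, and all 3 siPOLR1D3 libraries were inside the SCR range. The mean was 455 ± 92.4 (SD, n = 6) in SCR, 736 ± 81.2 (n = 3) with siPOLR1D2 and 485 ± 64.0 (n = 3) with siPOLR1D3.

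With siPOLR1D2, POLR2M rose by 0.71 on the log2 scale (SE 0.18, 95% interval 0.33 to 1.09, adjusted p = 0.0272, limma), a call that 3.16% of genes share in this direction, and 5.82% had all 3 libraries above every SCR library. The call was lost in 5 of the 12 fits that leave out 1 library, with adjusted p of 0.123 without siPOLR1D2 replicate 1, 0.0592 without replicate 2, 0.0666 without replicate 3, 0.0526 without SCR replicate 4 and 0.0554 without SCR replicate 6. The difference stayed between 0.63 and 0.78 in all 12 of them. With siPOLR1D3 the difference was 0.11 (95% interval -0.27 to 0.49, adjusted p = 0.725). Over both siRNAs it was 0.41 (SE 0.18, adjusted p = 0.194), and the exact 2-sided permutation test gave p = 0.0671.

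POLR2M was lower with siPOLR1D3 than with siPOLR1D2 by -0.60 (SE 0.20, 95% interval -1.04 to -0.17, adjusted p = 0.112, limma), which did not pass the test. The 3 libraries of each siRNA did not overlap, as for 17.1% of the genes tested in SW480 in this direction. The siRNAs lie unequally on the sides of the first principal component. On side 1, siPOLR1D2 libraries had 825 and 667 against 536, 565 and 343 in SCR, and on side 2 the single siPOLR1D2 library had 715, against 363, 500.3 and 420.1 in SCR and 422, 483 and 549.6 with siPOLR1D3. The siPOLR1D2 libraries were the highest on each side, but side 2 held a single one and side 1 held no siPOLR1D3 library. The sides were also drawn from these same libraries, so siRNA and side cannot be fully told apart. A limma fit with the side as a covariate was added after the data were seen. In it the difference of siPOLR1D2 from SCR was 0.69 (adjusted p = 0.0198) and that between the siRNAs -0.52 (adjusted p = 0.271).

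In HT29, POLR2M had 357, 339, 362 and 417 normalized counts in SCR, 461 and 343 with siPOLR1D2, and 401 and 397 with siPOLR1D3. The arms overlapped, and siPOLR1D2 replicate 1 was the highest of the 8 libraries. The log2 fold change was 0.11 (SE 0.13, 95% interval -0.18 to 0.41, adjusted p = 0.744, limma), with an exact 2-sided permutation p of 0.343. The response of POLR2M in SW480 minus that in HT29 was 0.30 (SE 0.25, adjusted p = 0.824).

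**Figure D4:**
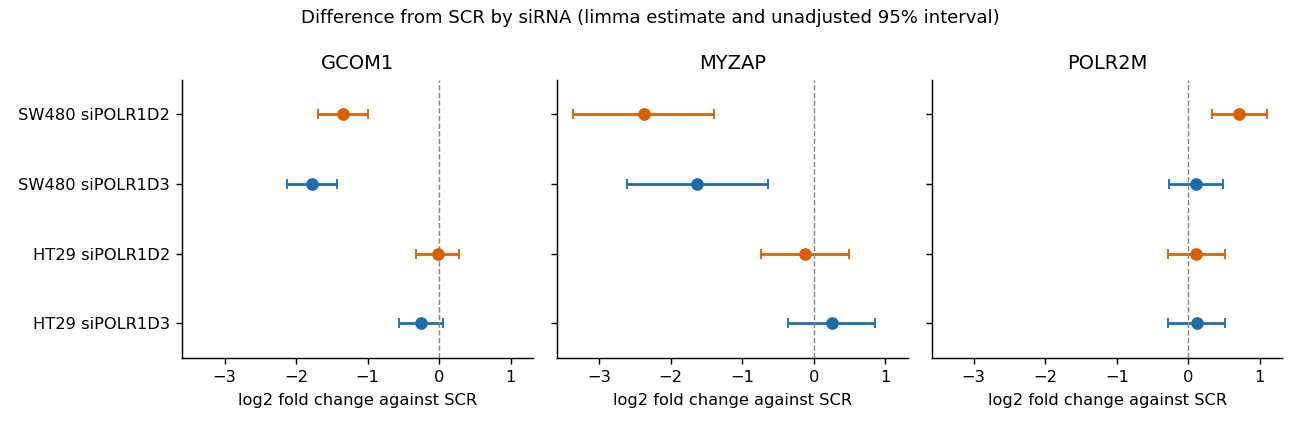
Log2 fold change of each member against SCR by cell line and siRNA (points), with the unadjusted 95% interval from limma (bars) and a dashed line at 0; the GCOM1 panel is a description, as GCOM1 was chosen by this contrast. In SW480, GCOM1 and MYZAP lay below 0 with both siRNAs, and POLR2M lay at 0.71 with siPOLR1D2 and 0.11 with siPOLR1D3.

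The reads of the 3 names were also added up in each library, since shared words allow reads to pass between names. These sums contain GCOM1 and are a description. GCOM1 and MYZAP together had 554 ± 62.7 (SD, n = 6) normalized counts in SW480 SCR libraries, 207 ± 45.7 (n = 3) with siPOLR1D2 and 165 ± 29.5 (n = 3) with siPOLR1D3. Every silenced library was below every SCR library, and the mean of the sum fell by 347 with siPOLR1D2 and fell by 389 with siPOLR1D3. GCOM1 and POLR2M together behaved differently with the 2 siRNAs. Their sum was between 835 and 1085 in SCR, between 841 and 1069.5 with siPOLR1D2 and between 542 and 703 with siPOLR1D3. With siPOLR1D2 the mean of GCOM1 fell by 296 while that of POLR2M was higher by 281, and the sum overlapped with SCR in all 3 libraries. With siPOLR1D3 the mean of GCOM1 fell by 349 while that of POLR2M was higher by 30.2, and all 3 sums were below every SCR library. Whether reads moved between the names GCOM1 and POLR2M with siPOLR1D2 was not tested.

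The share of each name in the reads of the locus does not depend on a normalization that scales each library by a single factor. Shares and ratios contain GCOM1, which was chosen for its fall in SW480, so they too are a description. A fall of GCOM1 alone raises the share of POLR2M: with siPOLR1D3 that share averaged 74.7% against 44.8% in SCR. The mean counts of POLR2M were 485 and 455. In SW480 SCR libraries GCOM1 took between 42.6% and 57.3% of the summed counts, and in silenced libraries between 18.8% and 22.5%. POLR2M took between 37.1% and 53.3% in SCR and between 71.4% and 80.7% in silenced libraries. The ratio of GCOM1 to POLR2M counts was between 0.799 and 1.54 in SCR, between 0.233 and 0.296 with siPOLR1D2 and between 0.2800 and 0.314 with siPOLR1D3. The ranges of the 2 siRNAs overlapped in this ratio, although they did not overlap in either gene alone. In HT29 the ratio was between 3.00 and 3.67 in SCR and between 2.52 and 3.52 in silenced libraries, above every SW480 library. MYZAP took between 8.25% and 13.6% of the counts in HT29 SCR libraries and between 4.15% and 8.35% in SW480 SCR libraries, and between 0.557% and 6.12% in silenced SW480 libraries.

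**Figure D5:**
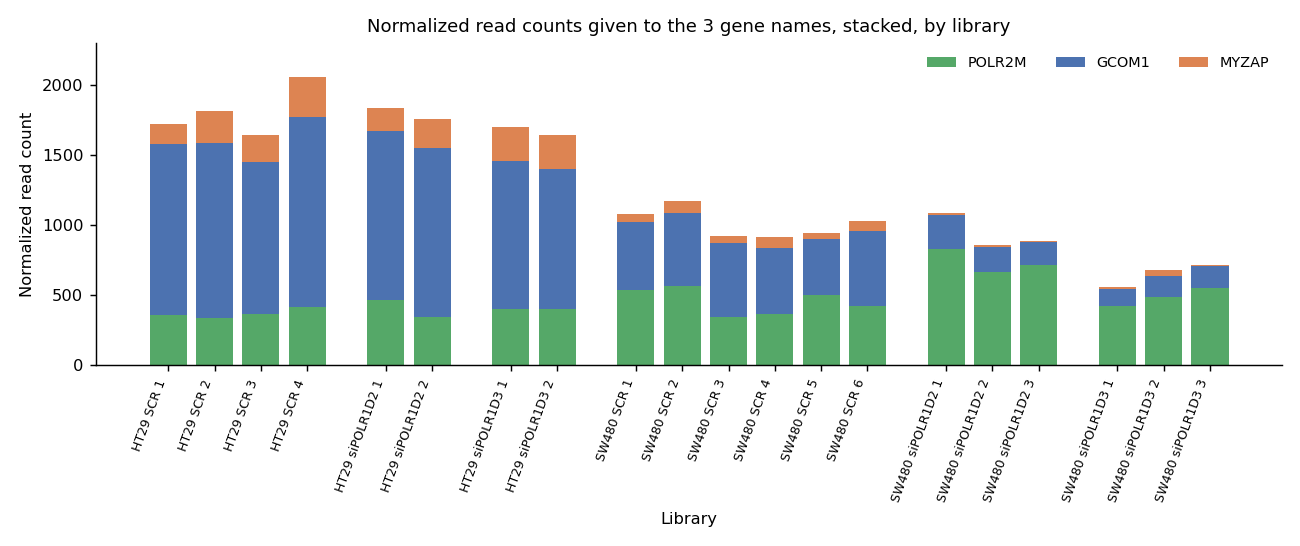
Normalized read counts of POLR2M (green), GCOM1 (blue) and MYZAP (orange), stacked, in each library; the height of a bar is their sum. In SW480 the sum was 1009 ± 103 (SD) in SCR, 943 ± 123 with siPOLR1D2 and 649 ± 83.3 with siPOLR1D3. The GCOM1 and MYZAP parts were both smaller with each siRNA.

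Likeness of pattern was described over the 12 SW480 libraries, which fall into SCR and silenced groups, so a correlation of log2 values mostly reflects that difference. Of 15018 other genes, GPAT3 (r = 0.97), CARMIL1 (0.96), AC093616.1 (0.96), POLR1D (0.96) and FYTTD1 (0.95) were closest to GCOM1. TAOK2 (-0.96), HIPK3 (-0.96) and ADAMTSL2 (-0.95) were the most opposed. POLR1D, the target of the siRNAs, was the fourth closest, and within groups, as deviations from the group means, its r with GCOM1 was 0.69. TAOK2 had -0.71 within groups, and the values within groups were not ranked over all genes. MYZAP had an r of 0.81 with GCOM1 and stood at place 404, with 0.48 within groups. POLR2M had an r of -0.40 and stood at place 11625, with 0.20 within groups. In HT29, with 8 libraries, the r within groups was 0.51 for GCOM1 and MYZAP and 0.32 for GCOM1 and POLR2M.

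The partners of the encoded proteins were described in SW480 by counts, with a median log2 difference over all genes tested of 0.013. Of the 12 subunits of RNA polymerase II, 0 passed the adjusted p (limma) and 3 had an unadjusted p under 0.05, as did 3478 of the 15019 genes tested, with a median difference of -0.022. By siRNA, 1 subunit passed with each, and both are named because they passed. POLR2F rose with siPOLR1D2 (0.48, adjusted p = 0.0480) and POLR2D fell with siPOLR1D3 (-0.93, adjusted p = 0.00253). Over all genes tested, 8.16% passed with siPOLR1D2 and 6.6% with siPOLR1D3. In a fit of the siPOLR1D2 and SCR libraries alone, 0 subunits passed. Of the 12 subunits, 10 lay above 0 with siPOLR1D2 and 8 below 0 with siPOLR1D3. The medians over all genes tested were 0.0082 and 0.015. POLR2A, the largest subunit, differed by -0.060 (adjusted p = 0.913) and POLR2B, the second largest, by -0.010 (adjusted p = 0.979). Of 15 genes of factors that act with or against Gdown1 on the polymerase, RTF1, a subunit of the PAF complex in elongation, rose by 0.89 (SE 0.11, adjusted p = 0.000991) and 14 did not pass, with a median of 0.076. Of 17 tested genes of junctions and of signalling to serum response factor, 3 fell and 0 rose, with a median of -0.045. Among them were TJP1 (-0.63, adjusted p = 0.00351), which encodes a scaffold protein of tight junctions, and CTNNA1 (-0.37, adjusted p = 0.0361), which encodes alpha-catenin of adherens junctions. The number of the 17 that passed was 1 without SCR replicate 4, 5 or 6 or any siPOLR1D2 library, 5 without SCR replicate 1, and 2 or 3 without each of the others. Over all genes tested in SW480 the share called was 6.73%.

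Of 50 genes annotated within 1 Mb, 25 were in the files and 9 were tested in SW480, with a median difference of 0.019. As background for this list and the next, 6.73% of all genes tested in SW480 were called, 4.29% as lower. MINDY2, a deubiquitinase gene, fell by 0.67 on the log2 scale (adjusted p = 0.0390), and ADAM10 (-0.037), TCF12 (-0.011) and ZNF280D (-0.093) did not pass the test. The call rests on the full set of libraries: 0 of the neighbours passed in 10 of the 12 fits that leave out 1 library, all but those without SCR replicate 1 or siPOLR1D3 replicate 2, and 0 passed with upper quartile normalization or with no filter. Of 107 gene names made of 2 other names in the files, as readthrough genes are, 82 were tested in SW480, with a median of 0.00045. TVP23C-CDRT4 fell by 0.85 (adjusted p = 0.0486), and its downstream gene CDRT4 fell by 1.34 (adjusted p = 0.0112). The number that passed was 0 in 10 of the 12 fits that leave out 1 library, 4 without SCR replicate 1 and 1 without SCR replicate 2, and it was 0 with no filter or with robust empirical Bayes. No fall among these 82 passed the test other than this one, and the lowest value, that of URGCP-MRPS24 at -1.54, had an adjusted p of 0.477. GCOM1 is not among them, as its name does not join those of its neighbours. In HT29, 0 members of the 5 lists passed the test, and 1, 1, 0, 1 and 7 had an unadjusted p under 0.05, in the order given here.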

How the data were processed

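Exome-captured RNA was sequenced as paired-end reads of 75 bases from 20 libraries. Per the paper's methods and the labels, the authors used FastQC (0.11.5), kallisto (0.44.0) and DESeq2 (1.24.0, within each cell line) on hg38; the kallisto index is not given in the sources used here. The deposited signal values are normalized read counts that are not whole numbers, so counting error is unknown, and limma (3.58.1, R 4.3.3) on log2(value + 1) with a mean-variance trend was used. Genes were tested with at least 10 in at least 6 SW480 or 4 HT29 libraries, and an adjusted p under 0.05 counted as a change. Interactions used all 20 libraries. Gene structure came from GENCODE 29, which may differ from the authors' annotation.

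The members and lists were chosen with earlier results of these data known. Text names called list members, otherwise the 2 with the highest values, and the 5 closest and 3 most opposed genes to GCOM1 by Pearson's r. ADAM10, TCF12, ZNF280D, URGCP-MRPS24 and CDRT4 were named after their values were seen. The fit was tested on simulated data. Alternatives covered scaling, pseudocount, filter, empirical Bayes settings, replicate block, principal component side, siRNA, controls and leaving out each library. Those added after seeing the data were the side as a covariate for the siRNA contrasts and leaving out siPOLR1D3 replicate 2. One gene of the junction list that is counted is not reported here by name.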

Additional observations from a re-analysis of the deposited data

Results flagged for a closer look

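MYZAP stood at 41.4 normalized counts in siPOLR1D3 replicate 2, far above the other 5 silenced SW480 libraries, which lay between 4.94 and 17.8. The gap to the nearest library was 0.646 of the whole range of the 6 libraries. This was the only one found when the members, POLR1D and 2 sums over the locus were looked at in 24 groups of 4 or 6 libraries, where chance gives about 1 in 20. Each of these 24 groups was an arm of a cell line, and the silenced arms hold both siRNAs. GCOM1 in the same library was 152, between the values of the other siPOLR1D3 libraries, and POLR2M was 483. Without this library the fall of MYZAP in silenced SW480 cells was -2.29.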

How the results depend on the processing

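In all, 17 other settings and 20 fits that leave out 1 library were run, and GCOM1 in SW480 stayed between -1.78 and -1.30. Signs turned only in HT29, at differences near 0: POLR2M between the siRNAs with upper quartile normalization (-0.040), MYZAP with siPOLR1D2 under the replicate block or against the SCR replicates of lower number (0.051 in both), and MYZAP with siPOLR1D2 alone for both siRNAs (-0.13). Leaving out 1 library gave -0.11 to 0.21 for MYZAP and HT29 silencing, -0.30 to 0.023 for MYZAP and -0.10 to 0.32 for POLR2M with siPOLR1D2, and -0.21 to 0.22 for POLR2M between the siRNAs.

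In SW480, the fall of MYZAP over both siRNAs missed the threshold within side 1 (-1.92, adjusted p = 0.285), where 5 libraries remained, and passed in all 12 fits without 1 library (-2.29 to -1.72). With siPOLR1D2 against the SCR replicates of lower number, which uses fewer samples, MYZAP (-2.42, adjusted p = 0.164) and POLR2M (0.64, adjusted p = 0.304) missed it. With siPOLR1D3, MYZAP passed with a pseudocount of 5 (-1.43), against the SCR replicates of higher number (-1.58) and in 2 of the 12 fits without 1 library (-2.16 to -1.33); for POLR2M with siPOLR1D2 these ranged from 0.63 to 0.78. The cause was not tested. The filter of 10 in every library left no MYZAP value in SW480.

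Same-numbered libraries did not deviate together, with correlations between -0.60 and 0.39, and not every library was closest to its own number. With the replicate block, MYZAP in SW480 was -2.05 over both siRNAs (adjusted p = 0.109) and -2.42 with siPOLR1D2 (adjusted p = 0.0671), and POLR2M with siPOLR1D2 was 0.64 (adjusted p = 0.219). The block called 0 genes in SW480, also in the lists of factors acting with Gdown1, junctions, neighbours and readthrough names, and 735 in HT29, with 1 polymerase subunit, 2 junction genes and 3 readthrough names.

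Called genes in SW480, 1011 in the text, were 666 with no filter, 1993 with the side as a covariate, 0 within side 1, 1939 within side 2, 574 with siPOLR1D2 alone and 534 to 1283 without 1 library; in HT29 they were 11 with both lines in one fit and 0 to 1 without 1 library. For the factors acting with Gdown1 (1 in the text) the counts were 3 with upper quartile normalization, 2 with both lines in one fit, 5 with the side as a covariate, 0 and 2 within the sides, 2 with siPOLR1D2 alone and 1 to 2 without 1 library. For junction genes (3) they were 1 with no filter, 1 with no trend, 1 with siPOLR1D3 alone, 0 and 6 within the sides and 1 to 5 without 1 library. For neighbours (1) they were 0 with upper quartile normalization, with no filter, within either side and with siPOLR1D3 alone, 2 with the side as a covariate and 0 to 1 without 1 library (0 in 10 of 12 fits). For readthrough names (1) they were 0 with no filter, with robust empirical Bayes and with siPOLR1D2 alone, 3 with the side as a covariate, 0 and 5 within the sides, 0 to 4 without 1 library and, in HT29, 1 with both lines in one fit. Of the polymerase subunits, 1 was called with siPOLR1D3 alone and 0 with siPOLR1D2 alone.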
